A study of Mus musculus with 6 samples.

Results

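The interleukin 1 receptor antagonist gene Il1rn and the interleukin 10 gene Il10 were followed by the DNase I hotspots listed around them in activated macrophages. DNase I hotspots are stretches where a light digestion with the nuclease frees many DNA ends, which marks open chromatin. The members are all hotspots of the 6 lists that overlap chr2:24050000-24250000, a window of 200 kb around Il1rn, or chr1:132850000-132970000, a window of 120 kb around Il10 (mm9). Hotspots of the 6 lists were merged into regions where they overlapped by at least 1 bp. This gave 18 regions in the Il1rn window and 15 in the Il10 window, 33 of 59069 regions in the genome. In mm9 the genes lie at about 24.192 to 24.207 Mb and at about 132.916 to 132.922 Mb. Distances are counted in kb from these approximate starts to the centre of a region, negative before the start.

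The cells were macrophages derived from the bone marrow of C57BL/6J mice, used as primary cells. All 6 libraries received lipopolysaccharide (LPS), the bacterial component that activates macrophages through Toll-like receptor 4, for 8 h. The LPS group (2 libraries) received nothing else, the pre-treated group (2 libraries) received Dex before LPS, and the late-treated group (2 libraries) received it during the later part of the LPS exposure. Dex stands here for the glucocorticoid, since the series title concerns the timing of such treatment, and the labels give no dose or interval. Untreated cells and cells given Dex alone were not analysed here, and the label of the cells was not checked against marker loci, since no mm9 annotation was used here. Nothing in the labels says that the libraries of a group came from separate animals or cultures, so their spread may be technical.

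IL-1 receptor antagonist, the product of Il1rn, occupies the type I IL-1 receptor without starting a signal and so blocks IL-1α and IL-1β. IL-10 acts through the IL-10 receptor and STAT3 to dampen the production of inflammatory cytokines by macrophages. Both genes are switched on in macrophages by LPS as part of the feedback that limits inflammation. In the RefSeq gene order, Il1rn follows a row of IL-1 family genes that ends with Il1f6, Il1f5 and Il1f10, and it is followed by Psd4. Il10 follows its relatives Il24, Il20 and Il19, and is followed by Mapkapk2, which encodes a stress kinase.

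RefSeq promoter sequences (GRCm38.p6) matched 1 of the 2 genes, Il1rn, with 3 transcription starts on the plus strand. The second and the third start lie 8431 and 8511 bp after the first. The 250 bases before the first and before the second start are shown, because a listed region stood close to the approximate gene start in mm9 and another between 8.2 and 11.8 kb after it. No position was carried from one build to the other. Capitals mark the single match found, an AP-1 motif.

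Il1rn first start, chr2:24336610-24336859: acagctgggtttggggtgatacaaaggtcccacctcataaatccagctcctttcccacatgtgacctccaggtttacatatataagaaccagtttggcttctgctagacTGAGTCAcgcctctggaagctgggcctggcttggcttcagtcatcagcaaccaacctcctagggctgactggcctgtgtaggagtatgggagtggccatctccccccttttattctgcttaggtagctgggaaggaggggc
Il1rn second start, chr2:24345041-24345290: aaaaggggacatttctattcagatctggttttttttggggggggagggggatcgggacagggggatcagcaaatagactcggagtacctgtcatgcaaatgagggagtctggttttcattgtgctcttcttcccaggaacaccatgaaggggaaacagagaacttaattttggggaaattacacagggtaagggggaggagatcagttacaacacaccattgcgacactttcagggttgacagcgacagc

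Both strands were searched for the AP-1 motif TGANTCA, the glucocorticoid receptor hexamer AGAACA, the full response element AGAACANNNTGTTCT (which contains that hexamer), the PU.1 core GAGGAA and the NF-kB motif. The AP-1 match TGAGTCA lies 141 to 135 bases before the first start. Among the 250 bases before 32851 RefSeq starts, 6.75% held the AP-1 motif, 16.1% the hexamer, 0.009% the full element, 23.3% the PU.1 core and 3.90% the NF-kB motif. A match is a description of letters, and its absence says only that they do not occur in these 250 bases.

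The values of a hotspot are the authors' own. They are a z-score, whose reference the sources used here do not give, and the maximum density of tags. Total tag numbers are unknown. Each library's maximum densities were whole multiples of a step of 0.334 to 0.443, within 0.1 of a step. The lists held 29347 to 51834 hotspots and began at z-scores of 7.98 and 8.35 in the LPS group and of 8.98 to 11.6 in the 4 Dex lists, so an unlisted region can lie below a list's own limit. A list percentile gives the share of a list's hotspots with a lower z-score. A shared percentile gives the same share among the 25091 regions that all 6 libraries list, a set of the same regions for every library. The loci were chosen with these values known, so the values are a description and no test between groups was run. With 2 libraries against 2 an exact two-sided permutation test could not go below a p of 0.333. Both Dex groups are set against the same 2 LPS libraries. Values of a pair are given in the order replicate 1, replicate 2.

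Hotspots around Il1rn were fewer and shorter with Dex at either time than with LPS alone. Of the 18 regions, 16 and 17 were listed with LPS alone, 9 and 9 with Dex before LPS, and 9 and 12 with Dex late. Hotspots covered 16710 and 16861 bp of the window with LPS alone, 5874 and 7727 bp with Dex before LPS, and 6082 and 9990 bp with Dex late. Every Dex library thus covered less of the window than either LPS library. Mean covered length was 16786 ± 107 bp with LPS alone, 6801 ± 1310 bp in the pre-treated group and 8036 ± 2763 bp in the late-treated group (SD, n = 2 each). The ratios to LPS were 0.405 and 0.479. Over the whole genome the same ratios were 0.775 and 0.703, and over 1624 genome tiles of this length the median ratios were 0.805 and 0.731. Both pre-treated libraries covered less than both LPS libraries in 72.2% of these tiles, and both late-treated libraries in 84.9%.

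**Figure D1:**
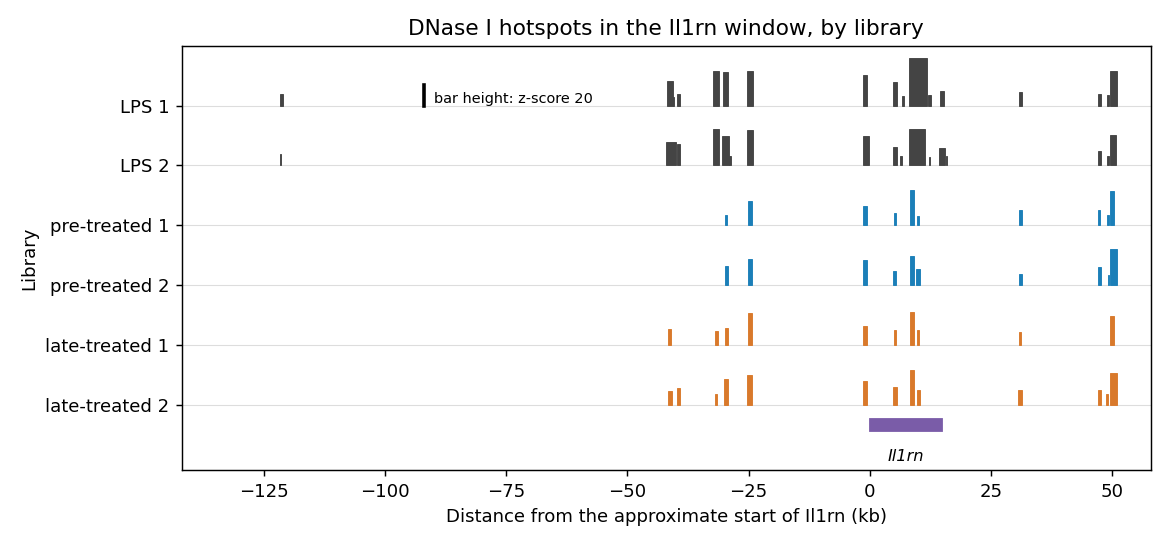
Hotspots listed in the Il1rn window (x axis: distance from the approximate gene start in kb; 1 row per library; bar width: length of the hotspot; bar height: z-score, with a scale bar of 20; purple bar: approximate extent of the gene). The regions around -41 and -32 kb are seen in the LPS and late-treated rows and in neither pre-treated row, while the region near 50 kb stands in all 6.

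Il10 gave a different picture, with no separation of the pre-treated group from LPS by covered length. Its strongest hotspot had a lower z-score than that of Il1rn in every library. Its median z-score was lower in every library except late-treated replicate 1 (17.3 against 16.0). Of its 15 regions, 10 and 11 were listed with LPS alone, 7 and 11 with Dex before LPS, and 5 and 9 with Dex late. The covered length was 6165 and 6552 bp with LPS alone, 3252 and 6202 bp with Dex before LPS, and 2657 and 4853 bp with Dex late. Replicate 2 of the pre-treated group covered more than LPS replicate 1, whereas both late-treated libraries lay below both LPS libraries. Mean covered length was 6359 ± 274, 4727 ± 2086 and 3755 ± 1553 bp in the same order (SD, n = 2 each), with ratios to LPS of 0.743 and 0.591. Tiles of this length had median ratios of 0.799 and 0.727 over 5133 tiles, and both late-treated libraries covered less than both LPS libraries in 76% of them (65% for the pre-treated libraries). Without replicate 1 of the pre-treated group its difference from LPS was -156.5 bp instead of -1631.5 bp, and without replicate 2 it was -3106.5 bp. The difference for the late-treated group went from -2603.5 bp to -1505.5 bp without its replicate 1.

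A pair of distal regions before Il1rn was listed with LPS alone and with Dex late, and not with Dex before LPS. The -31.7 kb region, chr2:24159744-24160874, had z-scores of 33.8 and 36.0 for LPS alone, was in neither pre-treated list, and had 13.5 and 10.6 with Dex late. Its maximum densities were 63 and 70 steps with LPS alone and 22 and 18 steps with Dex late, where a step is a unit of its own library. In multiples of each library's median over the shared regions, they were 1.105 and 1.296 against 0.5 and 0.409. In shared percentiles it stood at 52.7 and 61.1 with LPS alone and at 8.62 and 1.23 with Dex late. The pre-treated lists, which reach down to z-scores of 9.34 and 9.16, hold no hotspot in this region.

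The -40.9 kb region, chr2:24150058-24152057, is the other of this pair. Its z-scores were 24.1 and 22.9 with LPS alone, with no hotspot in either pre-treated list, and 15.8 and 13.6 with Dex late. Its hotspots covered 1581 and 1999 bp with LPS alone, and 620 and 827 bp with Dex late. Its neighbour at -39.5 kb, chr2:24152189-24152911, stood at 11.3 and 20.7 with LPS alone and at 15.9 in late-treated replicate 2, with no hotspot in the other 3 libraries. The most distant region, at -121.5 kb (chr2:24070187-24070809), was listed with LPS alone only, at the low z-scores of 11.8 and 11.6.

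Of the 15 Il1rn regions that both LPS libraries listed, 7 were in neither pre-treated list and 4 in neither late-treated list. Those 4 were in no Dex library. Over the genome these shares were 11.9%, 12.9% and 7.26% of 42198 regions. Among the 8 regions listed by both LPS and both late-treated libraries, 2 were in neither pre-treated list, the regions at -31.7 and -40.9 kb, against 0.608% of 26326 regions in the genome. None of the 8 regions listed by both LPS and both pre-treated libraries was missing from both late-treated lists (1.91% of 29841 in the genome). No region of this window was listed by both libraries of a Dex group and by neither LPS library, where the genome shares were 1.81% for the pre-treated and 1.2% for the late-treated group. These contrasts were used to choose the loci, and nothing is read from the shares. Without replicate 2 of the late-treated group, 7 instead of 4 regions were missing from the late-treated list.

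Between the distal regions and the gene, 2 regions were listed by all 6 libraries. The -29.7 kb region, chr2:24161558-24163018, had z-scores of 33.4 and 28.7 for LPS alone, 9.96 and 18.6 with Dex before LPS, and 16.2 and 25.3 with Dex late. Its shared percentiles were 52.0 and 46.4, then 1.28 and 17.3, then 19.8 and 42.2. All 4 Dex libraries were below both LPS libraries. By shared percentile both pre-treated libraries were also below both late-treated ones. By z-score, however, pre-treated replicate 2 (18.6) stood above late-treated replicate 1 (16.2). The -24.7 kb region, chr2:24166711-24167910, had z-scores of 34.2 and 35.2 for LPS alone, 23.4 and 25.8 in the pre-treated group, and 31.2 and 29.5 in the late-treated group. Here the shared percentiles of the late-treated libraries, 56.6 and 52.8, overlapped those with LPS alone, 53.3 and 59.7, while the pre-treated libraries stood lower at 41.7 and 38.8.

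The region next to the gene start, at -0.8 kb (chr2:24190540-24191808), was open in all 6 libraries. It had z-scores of 30.3 and 28.8 for LPS alone, 19.0 and 24.5 with Dex before LPS, and 18.2 and 23.0 with Dex late. The shared percentiles were 46.8 and 46.7 with LPS alone, 30.1 and 35.0 in the pre-treated group and 27.1 and 35.2 in the late-treated group. Both Dex groups lay below LPS and overlapped each other. The maximum density, in multiples of each library's median over the shared regions, was 0.930 and 0.963 for LPS and ranged from 0.614 to 0.864 in the Dex groups.

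Within the gene, the region at 10.0 kb (chr2:24200156-24203811) differed in shape between the lists. It was a single hotspot of 3655 and 3160 bp in the LPS libraries. In each of the 4 Dex libraries it consisted of 2 hotspots, which together covered 1092 and 1757 bp with Dex before LPS and 1303 and 1576 bp with Dex late. The mean widths in the Dex groups were 0.418 and 0.422 times that with LPS alone, where the median over all shared regions was 0.915 and 0.859. Its highest z-score differed less, with 46.6 and 36.2 for LPS alone against 34.8 and 28.8 (pre-treated) and 32.3 and 33.8 (late-treated). In shared percentiles, late-treated replicate 2 (61.05) was just below LPS replicate 2 (61.34).

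The other regions within the gene were weaker. At 5.2 kb (chr2:24196739-24197647) the z-scores were 23.0 and 18.5 with LPS alone, 12.0 and 13.9 in the pre-treated group, and 14.8 and 17.0 in the late-treated group. Near the end of the gene, at 15.0 kb (chr2:24206408-24207578), both LPS libraries listed a hotspot of 948 and 1170 bp (z-scores of 14.5 and 17.7) that no Dex library listed. The regions at 6.7 kb (z-scores of 9.52 and 9.27) and 12.4 kb (10.1 and 8.73) were also listed with LPS alone only, close to the lower limit of the lists. Together, hotspots within the gene covered 5991 and 5204 bp with LPS alone, 1531 and 2338 bp with Dex before LPS, and 1845 and 2244 bp with Dex late.

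On the far side of Il1rn, toward Psd4, hotspots covered 3625 and 3186 bp with LPS alone, 2364 and 2983 bp with Dex before LPS, and 1079 and 3205 bp with Dex late. The pre-treated libraries thus covered less than both LPS libraries there, and the late-treated ones overlapped LPS. The strongest region there, at 50.3 kb (chr2:24241609-24243063), had z-scores of 33.9 and 30.0 for LPS alone, 33.9 and 35.8 in the pre-treated group and 28.0 and 30.9 in the late-treated group. Its shared percentiles were 52.8 and 49.5, then 59.6 and 59.4, then 51.4 and 55.8. The pre-treated libraries were thus the highest here, whereas they were below both LPS libraries at the other 5 shared regions of the window. The region at 47.5 kb (chr2:24239120-24239796) had z-scores of 11.8 and 14.1 for LPS alone, 15.3 and 17.7 with Dex before LPS, and 14.1 in late-treated replicate 2. The region at 31.1 kb (chr2:24222629-24223477) was listed at 14.8 and 11.1 with Dex before LPS, at 12.5 and 13.8 with Dex late and at 13.1 in LPS replicate 1, and LPS replicate 2 did not list it. A weak region at 49.1 kb (chr2:24240762-24241521) stood at 10.4 and 9.58 with LPS alone, at 9.77 and 10.1 with Dex before LPS and at 10.4 in late-treated replicate 2.

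**Figure D2:**
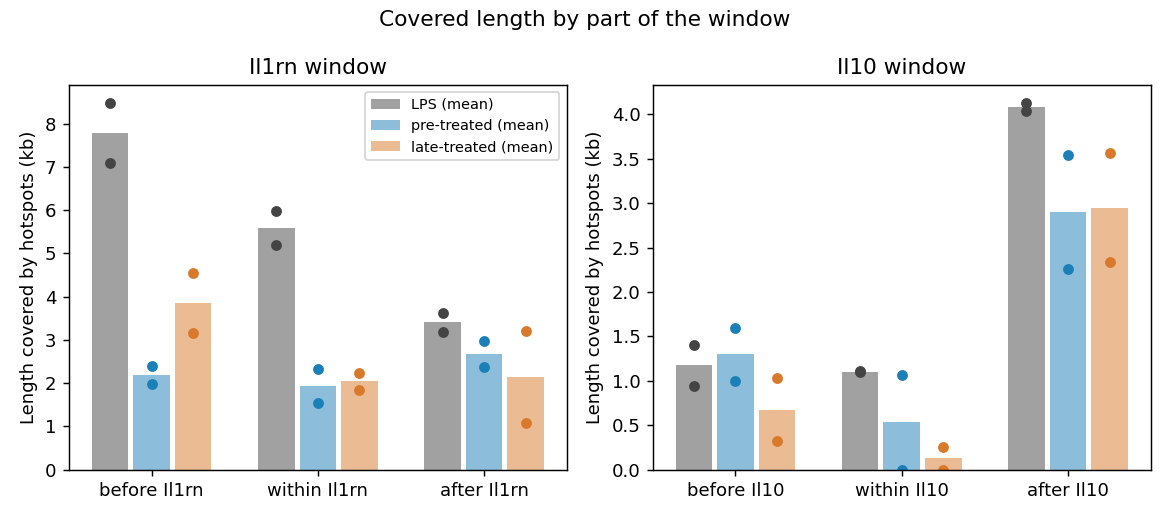
Length covered by hotspots before, within and after each gene (y axis: kb; bars: mean of 2 libraries; points: single libraries; gene ends are approximate). Before and within Il1rn every Dex library lies below both LPS libraries, and after Il1rn the pre-treated mean is 0.785 and the late-treated mean 0.629 times that of LPS, with overlap between the late-treated and LPS libraries.

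By part of the window, covered length before Il1rn was 7783 ± 974 bp with LPS alone, 2193 ± 302 bp with Dex before LPS and 3850 ± 978 bp with Dex late (SD, n = 2 each). The ratios to LPS were 0.282 and 0.495 before the gene, 0.346 and 0.365 within it, and 0.785 and 0.629 after it. The low ratio of the late-treated group after the gene rested on its replicate 1, which covered 1079 bp there, against 3205 bp in replicate 2. Replicate 1 also has the shortest list of the 6, and the part played by list length was not tested.

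Taking the 6 Il1rn regions that all libraries listed, the shared percentile was lower in both pre-treated libraries than in both LPS libraries at 5 and higher at 1. Over the 25091 shared regions this held for 19.3% in either direction. In the late-treated group 4 of the 6 were lower (18% in the genome) and 0 higher (17.2%). The median difference from LPS was -15.24 points in the pre-treated and -6.78 points in the late-treated group, where the medians of all shared regions were 0.04 and -0.18. By list percentile, 5 were lower in the pre-treated group (42.3% in the genome) and 6 in the late-treated group (47.7%), with 0 higher in either (4.22% and 1.72%). Hotspots were narrower in both libraries of the group than in both LPS libraries at 5 of 6 regions in the pre-treated group (42.9%) and at 5 of 6 in the late-treated group (56.8%), and wider at 0 (5.06% and 1.96%). In the direct comparison of the Dex groups by shared percentile, 3 of 6 were lower in both pre-treated than in both late-treated libraries (14.5%). Those were the regions at -29.7, -24.7 and 5.2 kb, and the one at 50.3 kb was higher (14.7%). By list percentile the Dex groups overlapped at each of these regions.

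**Figure D3:**
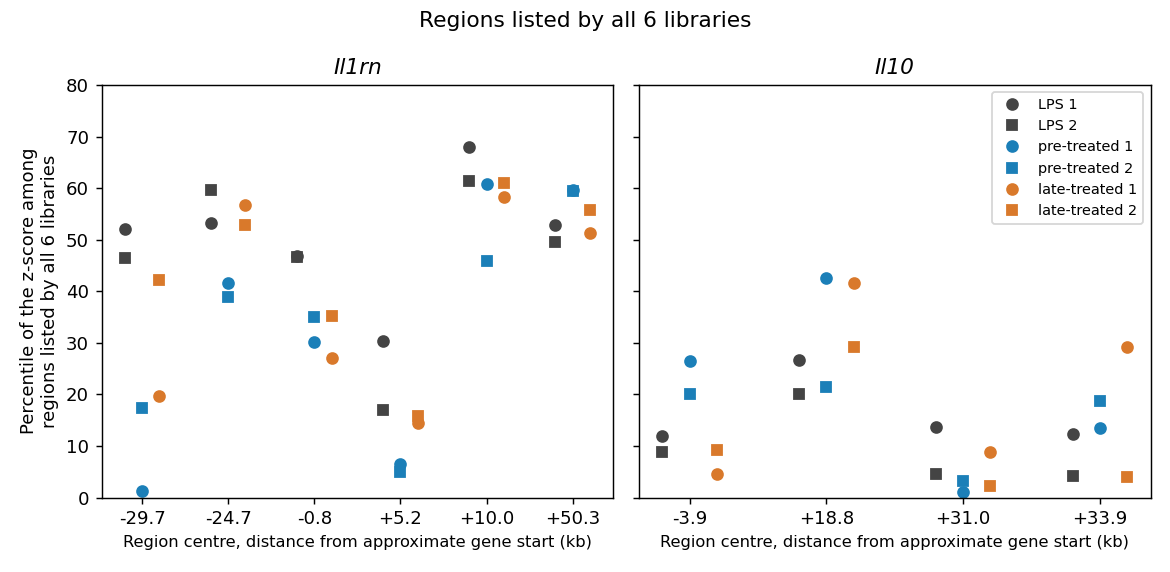
Shared percentile of the z-score (y axis) for each region listed by all 6 libraries, ordered by distance from the approximate gene start in kb (x axis), for Il1rn on the left and Il10 on the right; circles are replicate 1 and squares replicate 2. The LPS points lie above both pre-treated points at 5 of the 6 Il1rn regions, and at Il10 the highest point is 42.6.

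At Il10 the region next to the gene start was weak and not listed in every library. The 0.4 kb region, chr1:132916023-132916684, had z-scores of 11.0 and 9.53 for LPS alone, 13.5 in pre-treated replicate 2 and 9.085 in late-treated replicate 2. The libraries without it were replicate 1 of the pre-treated and of the late-treated group, which have the 2 shortest lists, 34646 and 29347 hotspots. At 1.6 kb (chr1:132917278-132917885), within the gene, the LPS libraries had z-scores of 12.6 and 13.8, with 11.5 in pre-treated replicate 2, and no late-treated library listed a hotspot. The part played by list length in these absences was not tested.

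Before Il10, the -3.9 kb region (chr1:132911715-132912558) was open in all libraries. It had z-scores of 16.4 and 15.4 for LPS alone, 17.8 and 19.4 in the pre-treated group, and 12.6 and 14.9 in the late-treated group. Its shared percentiles were 12.0 and 8.79 with LPS alone, 26.4 and 20.2 in the pre-treated group and 4.50 and 9.31 in the late-treated group. By both measures the pre-treated libraries were the highest. The late-treated ones overlapped LPS by shared percentile and were below both LPS libraries by z-score. By list percentile the pre-treated libraries (44.1 and 52.1) overlapped LPS (47.9 and 45.2), and both late-treated ones (7.7 and 39.3) were below it.

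Further upstream, 2 weak regions were listed by 1 side only. The -21.7 kb region, chr1:132893992-132894640, stood at 10.8 and 12.6 with Dex before LPS and at 11.5 in late-treated replicate 2, with no hotspot in either LPS list. It was the only one of the 7 Il10 regions in both pre-treated lists that neither LPS list held (1.81% in the genome). Conversely, the -29.9 kb region, chr1:132885934-132886312, was listed with LPS alone only, at 9.27 and 9.68.

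After Il10, toward Mapkapk2, the strongest region of the window in every library except LPS replicate 1 lay at 18.8 kb (chr1:132934420-132935244). Its z-scores were 21.6 and 19.5 with LPS alone, 23.8 and 19.8 with Dex before LPS, and 23.2 and 21.0 with Dex late, so that the groups overlapped. In shared percentiles both late-treated libraries (41.7 and 29.3) were above both LPS libraries (26.7 and 20.1), and the pre-treated libraries (42.6 and 21.5) overlapped them. Replicate 1 was the higher of each pair. The region at 33.9 kb (chr1:132949511-132950326) had z-scores of 16.5 and 13.2 for LPS alone, 14.1 and 19.0 in the pre-treated group and 18.8 and 12.6 in the late-treated group. The region at 31.0 kb (chr1:132946458-132947470) had 17.1 and 13.5 with LPS alone, 9.91 and 13.0 in the pre-treated group and 13.6 and 11.4 in the late-treated group. At 27.2 kb (chr1:132942800-132943615), the z-scores were 10.7 and 10.1 for LPS alone, 9.58 and 10.5 in the pre-treated group and 12.1 in late-treated replicate 2, and late-treated replicate 1 listed no hotspot.

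The LPS libraries disagreed just after the end of Il10. The 6.4 kb region, chr1:132922028-132922805, had a z-score of 22.1 in LPS replicate 1, the highest of that library in the window, and no hotspot in LPS replicate 2. All 4 Dex libraries listed it, at 10.8 and 12.8 with Dex before LPS and at 17.3 and 12.2 with Dex late. The LPS libraries thus stand on either side of all Dex libraries here.

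**Figure D4:**
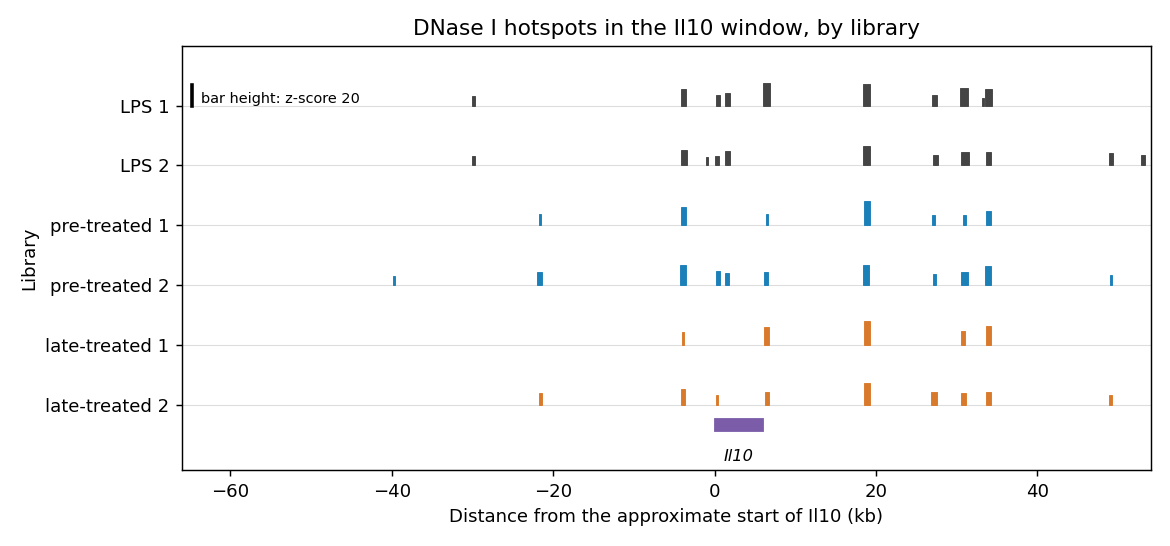
Hotspots listed in the Il10 window, drawn as for Il1rn (x axis: distance from the approximate gene start in kb; bar height: z-score; scale bar: 20). The regions near 19 and -4 kb stand in all 6 rows, and the hotspot just past the gene in LPS replicate 1 is missing from the row of LPS replicate 2.

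Of the 8 Il10 regions that both LPS libraries listed, 1 was in neither pre-treated list (11.9% in the genome) and 2 were in neither late-treated list (12.9%). Without LPS replicate 1 these counts became 3 and 4, and without LPS replicate 2 they became 2 and 3. Without replicate 2 of its own group, the pre-treated count became 3 and the late-treated count 4. Among the 4 regions listed by all 6 libraries, the shared percentile was lower in both pre-treated than in both LPS libraries at 1 (19.3%) and higher at 2 (19.3%). For the late-treated group 0 were lower (18%) and 1 was higher (17.2%). By list percentile, 2 of the 4 were lower in either Dex group (42.3% and 47.7%) and 0 were higher (4.22% and 1.72%). Hotspots were narrower at 2 of the 4 in the pre-treated group (42.9%) and at all 4 in the late-treated group (56.8%). The median shared percentile differed from LPS by 8.28 points in the pre-treated and 2.46 points in the late-treated group, opposite in sign to the medians at Il1rn. The single Il10 regions were of mixed sign, from -6.94 to 12.92 points (pre-treated) and from -3.6 to 12.1 points (late-treated). By list percentile the median differences from LPS were negative at both loci, at -2.39 and -16.34 points at Il10 and -17.63 and -18.02 points at Il1rn. The median widths were also below LPS at both, with ratios of 0.901 and 0.765 at Il10 and 0.681 and 0.722 at Il1rn. The difference between the loci was not tested.

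The regions with listings most like the -31.7 kb region of Il1rn were chosen by the smallest summed difference in list percentile over the 6 libraries. They were chr1:54062599-54063607, chr4:32674984-32675798 and chr10:118465394-118466212, with summed differences of 28.7, 31.8 and 34.6 percentile points. Each of the 3 was in both LPS and both late-treated lists and in neither pre-treated list. In z-scores the chromosome 4 region stood at 24.97 and 22.9 with LPS alone, and at 13.8 and 11.2 with Dex late.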

How the data were processed

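DNase-seq was made from 6 libraries in 3 groups of 2, grouped by sample title. The submitters' processing notes name CASAVA and mm9. What aligned the reads and called hotspots, and at what threshold, is not given in the sources used here. The authors deposited 1 hotspot list per library, not pooled. Its signal values are maximum and average tag densities, its score is a z-score, and it holds a p-value not stated to be adjusted, per the file headers. P-values were not used. No source says whether positions count from 0 or 1, and they appear as deposited, and widths are end minus start.

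Hotspots were merged, ranked and counted with Python 3.11.15 and pandas 2.3.3, and the code was tested on simulated lists. A region takes a library's strongest hotspot. Genome tiles of the window's length were kept where both LPS libraries covered at least 50% of the smaller LPS value of that window. All regions in both windows are accounted for. Full values are given where both libraries of a group list a region. The regions most alike are the 3 with the smallest summed difference in list percentile, 0 where unlisted. Members and lists were chosen with earlier results of these data known. The planned lists of pathway and cell type genes were not used, since no mm9 annotation was used here. Alternatives were lists of equal length, a common minimum z-score, wider merging, a stricter overlap, other percentiles, a replicate block and each library left out.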

Additional observations from a re-analysis of the deposited data

How the results depend on the processing

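In lists of equal length (29347 hotspots each), covered length in the Il1rn window differed from LPS by -7749 bp (pre-treated) and -6104 bp (late-treated), instead of -9985 and -8749.5 bp. There 3 Il1rn regions were in both LPS and neither pre-treated list, those at -40.9, -31.7 and 15.0 kb, and 1 in neither late-treated list. In late-treated replicate 2 the hotspots at -40.9 and -31.7 kb ranked 29713 and 37834, beyond the 29347 kept. Of the late-treated libraries, only replicate 1 thus still listed this pair. Lower list percentiles were found at 3 (pre-treated) and 2 (late-treated) shared regions. The Il10 counts all became 0, and the differences in covered length there became -643.0 bp (pre-treated) and -740.0 bp (late-treated), instead of -1631.5 and -2603.5 bp. With a common minimum z-score of 11.6, the pre-treated difference at Il1rn was -8843 bp. Then 4 and 2 Il1rn regions were in both LPS lists and in neither list of the pre-treated and late-treated group. The -31.7 kb region dropped out of the list of late-treated replicate 2, where its z-score was 10.6. At Il10 the differences were then -1017.5 bp (pre-treated) and -1466.5 bp (late-treated), 1 region was in neither late-treated list, and 0 (pre-treated) and 1 (late-treated) shared regions had a lower percentile. With at least 50% of a region covered, 2 Il1rn regions had a lower percentile in either Dex group. At Il10, 1 and 0 did, and 2 regions were in neither pre-treated list. By percentile among shared regions, 1 (pre-treated) and 0 (late-treated) Il10 regions were lower.

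With each library left out in turn, the differences in covered length lay between -10911.5 and -9058.5 bp (Il1rn, pre-treated), -10703.5 and -6795.5 bp (Il1rn, late-treated), -3106.5 and -156.5 bp (Il10, pre-treated) and -3701.5 and -1505.5 bp (Il10, late-treated). Regions missing from a Dex group numbered 7 to 9 and 4 to 7 at Il1rn, and 1 to 3 and 2 to 4 at Il10. Regions with a lower list percentile numbered 5 to 6 and 6 to 7 at Il1rn, and 2 to 4 (4 without pre-treated replicate 2) and 2 to 5 (5 without LPS replicate 2) at Il10. The cause of these shifts was not tested. By construction, cut lists hold fewer weak hotspots and a left-out library loosens each definition. Cut lists, the stricter overlap and left-out libraries also change which regions count as listed or shared. Numbers of regions tested and genome shares were not computed for these settings, so their counts are not comparable with the shares given above.

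With the replicate number as a block, comparing same-numbered libraries, 5 Il1rn regions had a lower percentile in the pre-treated and 6 in the late-treated group, and 2 and 3 at Il10, where the late-treated count without the block was 2. The block left the other counts and differences as they were. Same-numbered libraries deviated together over the shared regions (correlations of 0.354 to 0.415, across regions), but the labels do not tie equal numbers to a shared origin. Depth is unknown, so weak listings near a list's lower limit are uncertain.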

Other observations

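Of the 33 regions, 6 were listed by 1 library only, 2 at Il1rn and 4 at Il10. Both at Il1rn came from LPS replicate 2, at z-scores of 9.19 and 8.99. The 4 at Il10 came from LPS replicate 2 (8.66 and 9.95), LPS replicate 1 (8.02) and pre-treated replicate 2 (9.33). Replicate 2 of all 3 groups listed the Il10 region at 49.1 kb (chr1:132964802-132965343), at 12.3, 9.78 and 9.57, and no replicate 1 library did.

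The nearest regions outside the windows lay 12060 bp before and 14595 bp after the Il1rn window. The former, chr2:24037208-24037940, was listed by all 6 libraries, with 20.1 and 13.05 as z-scores for LPS alone and 10.1 to 13.5 in the Dex groups. Just inside the edges stood the regions at -121.5 and 50.3 kb. At Il10 the nearest outside region was chr1:132980082-132981451, 10082 bp after the window, which all 6 libraries listed at 27.2 to 33.75, above every hotspot within that window.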
